A study of Mus musculus with 6 samples.

Results

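Expression of 10 genes that remove peroxides and superoxide, trap lipid radicals or remodel membrane lipids was examined in primary hepatocytes of mice, the main metabolic cells of liver, infected with adenovirus encoding Aloxe3 or β-galactosidase (β-gal). They are Gpx4, Gpx1, Prdx6, Prdx1, Cat, Sod1, Sod2, Acsl4, Lpcat3 and Aifm2. They were chosen by name for their function, with earlier results of these data known. All 10 of 10 were found among the 41388 Ensembl genes of the table. They also passed the filter on low values that left 12693 genes for testing. Hepatocytes came from mice of the C57BL/6J strain, were isolated by collagenase digestion and infected with about 1000000 viral particles per 1000000 cells, and RNA was collected 24 h later. There were 3 libraries with β-gal (replicates 1, 2 and 3) and 3 with Aloxe3 (replicates 7, 8 and 9), all poly-A selected and sequenced as single reads. Both groups carried adenovirus, and uninfected hepatocytes were not analysed here. The sources used here do not give the number or age of the mice, the promoter of the virus, or whether the replicates were separate cultures, so the p-values measure the spread between these libraries.

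eLOX3, the product of Aloxe3, converts fatty acid hydroperoxides, the products of other lipoxygenases. Hydroperoxides that stay in membrane phospholipids are the starting point of ferroptosis, a form of cell death driven by iron and lipid peroxidation. Acsl4 and Lpcat3 place polyunsaturated fatty acids, the oxidizable substrate, into phospholipids. Gpx4 reduces phospholipid hydroperoxides to alcohols with glutathione, and the product of Aifm2, also called FSP1, regenerates the radical-trapping form of coenzyme Q. Superoxide dismutases make hydrogen peroxide from superoxide, and catalase, Gpx1 and peroxiredoxins remove it.

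Gpx1 and Gpx4 are selenoproteins, in which a TGA codon inside the reading frame is read as selenocysteine, the residue that reacts with the peroxide. The 27 bases of coding sequence around that codon are shown because both genes, and Gpx3 of the lists below, depend on the selenium-handling genes described later. They were read 5′ to 3′ from the GENCODE M21 transcripts, with the selenocysteine codon in capitals.
Gpx1, codon 47 of transcript Gpx1-201, GRCm38 chr9:108339451-108339453, forward strand: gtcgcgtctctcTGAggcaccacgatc
Gpx4, codon 129 of transcript Gpx4-201, GRCm38 chr10:80054737-80054739, forward strand: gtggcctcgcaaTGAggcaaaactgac
Gpx3, codon 73 of transcript Gpx3-201, GRCm38 chr11:54907256-54907258, forward strand: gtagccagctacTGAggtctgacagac
In each of the 3 the codon is followed by the bases ggc or ggt.

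Levels are RPKM, reads per kilobase of gene and per 1000000 reads, as deposited. The library sizes behind them, read off the whole-number steps of the values, were 29575553 to 32431318 reads with β-gal and 25521908 to 30399198 with Aloxe3, and the 10 genes were covered by 1345 to 25903 reads per library. Aloxe3 itself was present at 1.95 ± 0.18 RPKM with β-gal and 48.1 ± 7.3 with Aloxe3 (SD, n = 3 each), as the labels say. Transcripts of mitochondrial genes took 2.8 to 2.9% of the reads with β-gal and 3.0, 3.0 and 3.7% in Aloxe3 replicates 7, 8 and 9. Alb, which encodes albumin, lay between 4362 and 4552 RPKM in every library, and the 12 hepatocyte markers, most of whose sum is Alb, summed to 5218 to 5247 RPKM with β-gal and 5023 to 5186 with Aloxe3. Of the 11 tested, 1 was past the adjusted threshold (0.394% of all tested genes were) and 4 had an unadjusted p under 0.05 (12.7%). The markers differed in both directions. Ttr, the past-threshold one, was at 119 to 131 RPKM with β-gal and 99.4 to 101 with Aloxe3, Apoa1 at 241 to 246 and 218 to 235 and Serpina1a at 51.5 to 53.5 and 47.9 to 48.5, while Cps1 was at 0.915 to 1.05 and 1.29 to 1.64. The marker under the filter, Tat, was at 0.193 to 0.346 RPKM with β-gal and 0.438 to 0.661 with Aloxe3. Over all libraries Cyp3a11 (0.519 to 0.767 RPKM), Asgr1 (1.46 to 2.27) and Cyp2e1 (2.03 to 2.86) were also low. Apob was at 232 to 255 RPKM, Hnf4a at 25.4 to 29.3 and Ass1 at 11.2 to 13.8. The 10 Kupffer cell and macrophage markers summed to 159 to 164 RPKM with β-gal and 140 to 154 with Aloxe3, most of it Cd68. Clec4f and Vsig4, which define Kupffer cells, stayed at or below 0.102 RPKM, and Timd4 and Ptprc at or below 0.192. Over all libraries Lyz2 was at 6.65 to 9.5 RPKM, Adgre1 at 1.47 to 1.99 and Csf1r at 1.11 to 1.68. Marco was at 0.705 to 1.18 and Cd5l at 0.355 to 1.16. The 8 endothelial markers summed to 37 to 43.3 RPKM with β-gal and 37.6 to 42.4 with Aloxe3. The 8 stellate cell markers summed to at most 5.02 RPKM, with Lrat, which defines these cells, at 0 in every library. Col1a1 was at 2.09 to 2.53 RPKM, Dcn at 0.909 to 1.35 and Acta2 at 0.794 to 1.06. The part of these differences in the results below was not tested. In bulk RNA, fewer cells of a type and less RNA per cell cannot be told apart.

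All 10 genes were expressed, and none was past an adjusted p of 0.05 between the groups. The differences, given as log2 fold changes of Aloxe3 over β-gal on the log2(RPKM + 1) scale, ran from -0.17 for Aifm2 to 0.11 for Acsl4, with a median of -0.038 against 0.005 over all 12693 tested genes. Negative estimates were found for 7 (Gpx4, Prdx6, Prdx1, Sod1, Sod2, Lpcat3 and Aifm2) and positive ones for 3 (Gpx1, Cat and Acsl4). The farthest bound of any 95% interval corresponded to a 1.24-fold difference, lower, for Aifm2. The test was limma with a mean-variance trend and Benjamini-Hochberg adjustment over all tested genes, of which 50 (0.394%) were past the threshold, 45 higher (0.355%) and 5 lower (0.0394%). Of the 10 genes, 2 had an unadjusted p under 0.05 (Acsl4 higher, Aifm2 lower), against 12.7% of all tested genes. In 5 of the 10 the groups did not overlap, against 19.9% of all tested genes. Acsl4 and Gpx1 lay above β-gal (11.2% of tested genes did) and Gpx4, Sod1 and Aifm2 below it (8.71%).

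**Figure D1:**
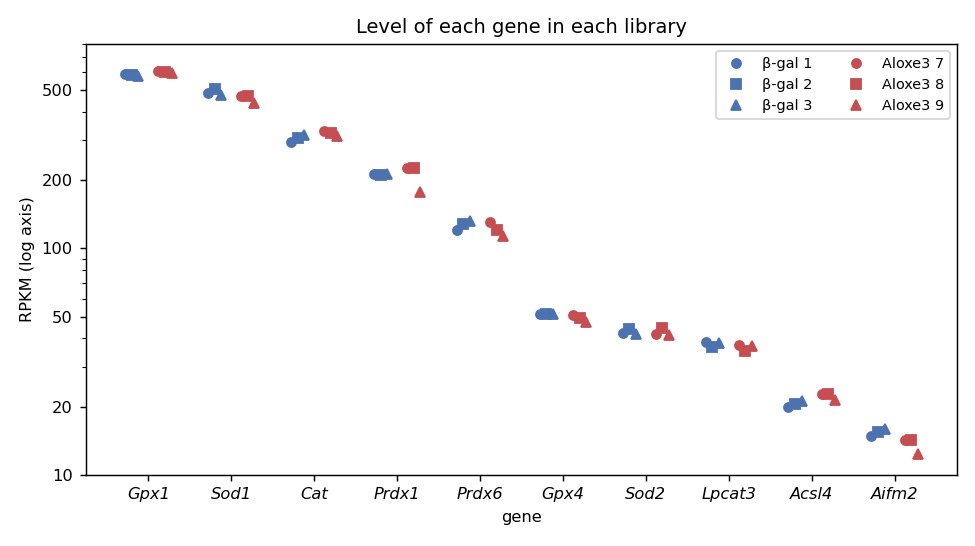
RPKM (log axis) of the 10 genes in each of the 3 β-gal (blue) and 3 Aloxe3 (red) libraries, ordered by the β-gal mean. Gpx1 stands highest, between 577 and 606 RPKM, and Aifm2 lowest, between 12.3 and 16 RPKM, and the groups lie close together in every gene.

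In the control hepatocytes the levels spanned from 583 ± 5.1 RPKM for Gpx1 to 15.4 ± 0.65 for Aifm2 (SD, n = 3). The order was Gpx1, Sod1, Cat, Prdx1, Prdx6, Gpx4, Sod2, Lpcat3, Acsl4 and Aifm2, and no neighbours in it overlapped in any of the 6 libraries, as the plot of levels shows. By their rank among the tested genes Gpx1 was at 64, Sod1 at 73, Cat at 109, Prdx1 at 173 and Prdx6 at 315, while Gpx4 was at 1035, Sod2 at 1282, Lpcat3 at 1508, Acsl4 at 2912 and Aifm2 at 3761. The 3 genes of membrane lipid remodelling and radical trapping (Lpcat3, Acsl4 and Aifm2) were the lowest, and Sod2 and Gpx4 lay just above them. The order depends on the gene lengths used for RPKM. The values of 6 genes gave whole reads with the exon length of GENCODE M21, and those of the other 4 with a shorter one, such as 646 bases for Sod1 against 3970 in M21. With M21 lengths the β-gal mean would be 79.6 RPKM for Sod1, 16.4 for Sod2, 97 for Prdx6 and 421 for Gpx1, which puts Sod1 between Prdx6 and Gpx4, and Sod2 between Acsl4 and Aifm2. The length of a gene is the same in all libraries.

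Acsl4, which encodes a long-chain acyl-CoA synthetase that activates arachidonic and adrenic acid, lies on chromosome X (GRCm38, 142317993 to 142390535, reverse strand). It was at 20, 20.6 and 21.1 RPKM in β-gal replicates 1, 2 and 3 and at 22.7, 22.7 and 21.5 in Aloxe3 replicates 7, 8 and 9. Every Aloxe3 library was above every β-gal library, with replicate 9 the nearest to the controls. The log2 fold change was 0.11 (SE 0.039, 95% interval 0.02 to 0.20, limma adjusted p = 0.317), a difference of 1.08-fold that did not pass the threshold. An exact permutation test of 3 libraries against 3 cannot go below 0.1, two-sided, the value that Acsl4 reached.

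Lpcat3 encodes the acyltransferase that esterifies the activated fatty acid to lysophospholipids (chromosome 6, 124663027 to 124704418, forward strand). It was at 38.5, 36.7 and 38.3 RPKM with β-gal and at 37.4, 35.3 and 36.9 with Aloxe3. These groups overlapped, and the log2 fold change was -0.05 (SE 0.038, 95% interval -0.14 to 0.04, limma adjusted p = 0.628), and -0.02 without Aloxe3 replicate 8. Acsl4 and Lpcat3, which act in sequence, therefore had estimates of opposite sign, and the ratio of Lpcat3 to Acsl4 within a library was 1.84 ± 0.078 with β-gal and 1.64 ± 0.082 with Aloxe3 (SD, n = 3 each). The ratio repeats the order of the groups in the 2 genes. In M21, 334 exon bases of Lpcat3, or 10.2%, are shared with Emg1 on the opposite strand, and reads there could not be assigned without strand.

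Aifm2 (chromosome 10, 61715263 to 61739260, forward strand) had the most negative estimate. It was at 14.8, 15.5 and 16 RPKM in β-gal replicates 1, 2 and 3 and at 14.3, 14.3 and 12.3 in Aloxe3 replicates 7, 8 and 9. The groups did not overlap, and replicate 9 lay well below the other two. The log2 fold change was -0.17 (SE 0.062, 95% interval -0.31 to -0.02, limma adjusted p = 0.335). Without replicate 9 it was -0.10 (SE 0.043, limma adjusted p = 0.415), a smaller value by more than 1.5 times. Aifm2 was the least covered of the 10 genes, with 1345 to 2071 reads per library, a counting error of 2.2 to 2.7%. It shares 233 exon bases (5.65%) with H2afy2 on the opposite strand.

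**Figure D2:**
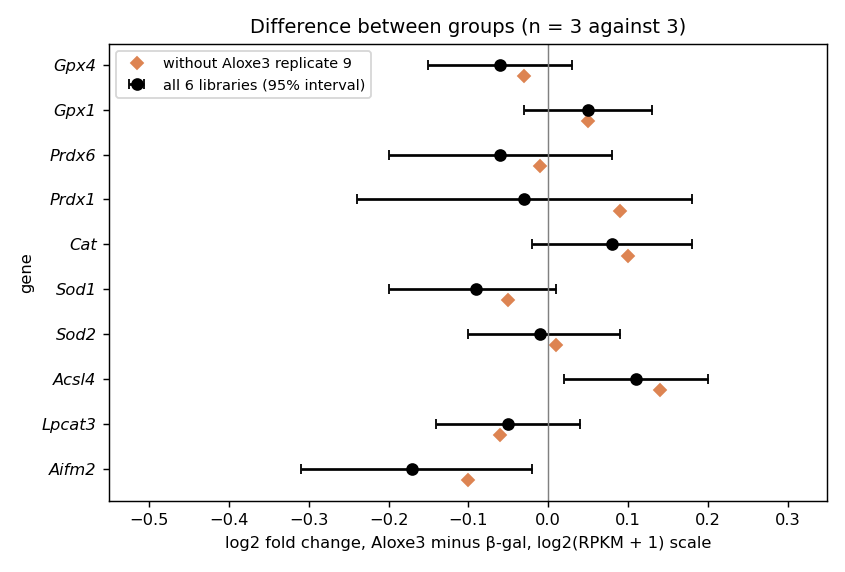
Log2 fold change of each gene, Aloxe3 minus β-gal, on the log2(RPKM + 1) scale, as the limma estimate with its 95% interval (black, n = 3 against 3) and without Aloxe3 replicate 9 (orange). The intervals of Acsl4 (0.02 to 0.20) and Aifm2 (-0.31 to -0.02) leave out 0 before adjustment, and Prdx1 moves from -0.03 to 0.09 without replicate 9.

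Among peroxide-removing enzymes, Gpx4 (chromosome 10, 80047166 to 80056439, forward strand) was at 51.4, 51.2 and 51.4 RPKM with β-gal and at 51, 49.3 and 47.3 with Aloxe3. Every Aloxe3 library was below every β-gal library, replicate 7 only just. The β-gal values had a coefficient of variation (SD over mean, CV) of 0.22%, closer together than the counting error of 1.9 to 2.2% for a single library. The log2 fold change was -0.06 (SE 0.037, 95% interval -0.15 to 0.03, limma adjusted p = 0.534), and -0.03 without replicate 9.

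Gpx1, which encodes the abundant cytosolic glutathione peroxidase, lies on chromosome 9 (108338903 to 108340343, forward strand). It was at 588, 583 and 577 RPKM with β-gal and at 606, 601 and 598 with Aloxe3. All Aloxe3 libraries were above the controls in this gene, including replicate 9. The difference was small, with a log2 fold change of 0.05 (SE 0.035, 95% interval -0.03 to 0.13, limma adjusted p = 0.602). The ratio of Gpx1 to Gpx4 within a library, which depends on the gene lengths of the deposited values but not on the library size, was 11.4 ± 0.11 with β-gal and 12.2 ± 0.39 with Aloxe3 (SD, n = 3 each). The ratio repeats the opposite order of the groups in the 2 genes.

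Prdx6 and Prdx1 encode peroxiredoxins, which reduce peroxides with a cysteine. Prdx6, whose product can also reduce phospholipid hydroperoxides (chromosome 1, 161240112 to 161251219, reverse strand), was at 121, 128 and 132 RPKM with β-gal and at 131, 120 and 113 with Aloxe3. The groups overlapped, and the log2 fold change was -0.06 (SE 0.060, 95% interval -0.20 to 0.08, limma adjusted p = 0.694). It was -0.01 without Aloxe3 replicate 9, -0.12 without Aloxe3 replicate 7, and -0.10 and -0.03 without β-gal replicates 1 and 3. Prdx1 (chromosome 4, 116685544 to 116700822, forward strand) was at 214, 212 and 213 RPKM with β-gal and at 227, 227 and 178 with Aloxe3. Replicates 7 and 8 were above the controls by about the same amount, and replicate 9 was far below all other libraries. Over the 3 libraries the log2 fold change was -0.03 (SE 0.090, 95% interval -0.24 to 0.18, limma adjusted p = 0.928), and without replicate 9 it was 0.09 (SE 0.028, limma adjusted p = 0.333). The direction in Prdx1 was therefore decided by a single library.

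Cat, the catalase of peroxisomes (chromosome 2, 103453849 to 103485160, reverse strand), was at 294, 306 and 316 RPKM with β-gal and at 331, 322 and 314 with Aloxe3. The groups overlapped at β-gal replicate 3 and Aloxe3 replicate 9. The log2 fold change was 0.08 (SE 0.042, 95% interval -0.02 to 0.18, limma adjusted p = 0.473), 0.10 without Aloxe3 replicate 9 (limma adjusted p = 0.405) and 0.05 without β-gal replicate 1 (limma adjusted p = 0.73). Cat was the most deeply covered of the 10 genes, with 21706 to 25903 reads per library.

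The superoxide dismutases differ in place, with the copper and zinc enzyme Sod1 in the cytosol and the manganese enzyme Sod2 in mitochondria. Sod1 (chromosome 16, 90220754 to 90226329, forward strand) was at 486, 505 and 478 RPKM with β-gal and at 470, 472 and 437 with Aloxe3, so that the groups did not overlap. Its log2 fold change was -0.09 (SE 0.046, 95% interval -0.20 to 0.01, limma adjusted p = 0.451), and -0.05 without replicate 9. Sod2 (chromosome 17, 13006846 to 13040063, forward strand) was at 42.5, 44.1 and 42 RPKM with β-gal and at 41.9, 44.6 and 41.6 with Aloxe3. The 2 ranges nearly coincided, and the log2 fold change was -0.01 (SE 0.040, 95% interval -0.10 to 0.09, limma adjusted p = 0.968), the estimate nearest to 0 among the 10.

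Aloxe3 replicate 9 stood apart, in these genes and over the whole table, where the chi-square per degree of freedom between replicates was 10.3 and 11.3 for its pairs and 3.87 to 6.23 for all others. It had the lowest value of the Aloxe3 group in 9 of the 10, all but Lpcat3, against 46.8% of all tested genes. The median of the 10 genes relative to the β-gal mean was 0.020, -0.004 and -0.080 in replicates 7, 8 and 9 (log2), while over all tested genes it was 0.010, 0.015 and -0.012. The CV within a group had a median of 2.7% with β-gal and 3.8% with Aloxe3, against 4.5% and 6% over all tested genes, and reached 13% for Prdx1 in the Aloxe3 group. Without replicate 9 the median log2 fold change of the 10 genes was -0.001, and 3 had an unadjusted p under 0.05 (Acsl4, Cat and Prdx1, all higher) against 12.2% of tested genes. Groups that did not overlap were then found in 7 of the 10, 4 higher and 3 lower, against 31.2% of tested genes. The number past the adjusted threshold was 0 with and without it. Replicate 9 is also the library with the highest mitochondrial share, 3.7%, and the part of that share in these values was not tested.

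**Figure D3:**
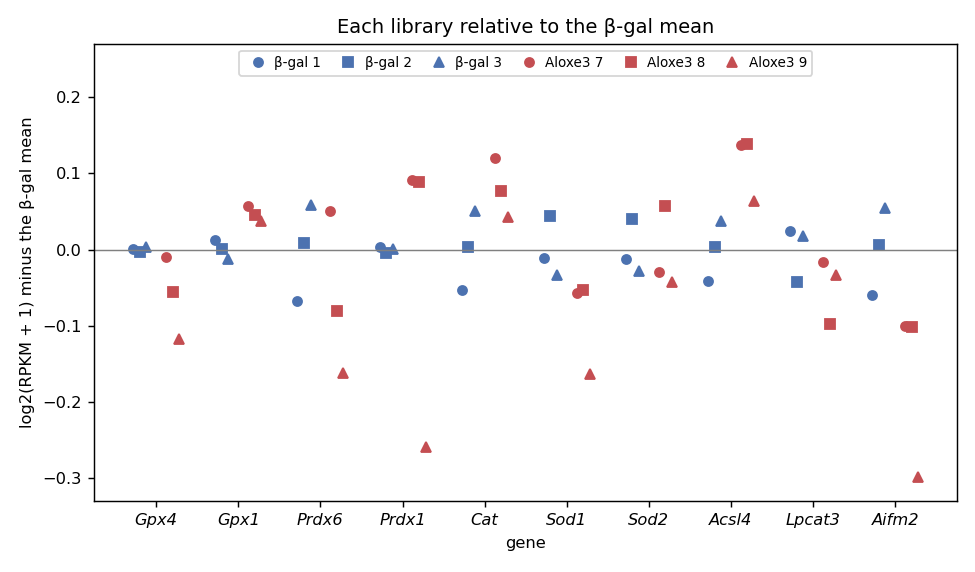
Log2(RPKM + 1) of each library minus the β-gal mean, for the 10 genes, with β-gal libraries in blue and Aloxe3 libraries in red. Aloxe3 replicate 9 (red triangles) is the lowest Aloxe3 library in 9 of the 10 genes, with -0.299 for Aifm2 and -0.260 for Prdx1, while replicates 7 and 8 lie above the controls in Gpx1, Prdx1, Cat and Acsl4.

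The surrounding pathway was described with 190 further genes in 11 lists, of which 168 were tested. None of the 168 was past the adjusted threshold (0.394% of all tested genes were). With voom in limma on the reads behind the RPKM values 7 were, against 1.36% of genes in that fit. An unadjusted p under 0.05 was found for 30, 20 higher and 10 lower, against 7.31% and 5.42% of all tested genes. The median log2 fold change over the 168 was -0.006.

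The list of glutathione and NADPH supply, which feeds Gpx1 and Gpx4, held the largest estimate. Gclc, the catalytic subunit of the enzyme that limits glutathione synthesis, was at 73.9, 86.6 and 92.3 RPKM with β-gal and at 119, 117 and 101 with Aloxe3. The groups did not overlap, and the log2 fold change was 0.41 (SE 0.092, limma adjusted p = 0.161, and 0.00601 with voom). The estimates were 0.04 (SE 0.062) for its modifier subunit Gclm, 0.12 (SE 0.052) for the cystine importer Slc7a11 and -0.04 (SE 0.053) for glutathione reductase, Gsr, with adjusted p from 0.392 to 0.815. Of the 20 tested genes of this list 3 were higher and 1 lower at an unadjusted p under 0.05, against 7.31% and 5.42% of all tested genes. The median of the list was 0.030.

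In selenocysteine synthesis and selenium transport, the machinery behind the TGA codons shown above, 13 of 13 genes were tested. Of these, 1 had an unadjusted p under 0.05, against 12.7% of all tested genes. It was Selenop, which encodes the plasma carrier of selenium made by the liver. Selenop was at 162, 163 and 174 RPKM with β-gal and at 205, 195 and 213 with Aloxe3. Every Aloxe3 library was above the controls, replicate 9 the most, and the log2 fold change was 0.30 (SE 0.048). Its adjusted p was 0.0649, above the threshold, and it was 0.0306 when the filter was set to 5 RPKM (0.638% of genes past the threshold there) and 0.00171 with voom. The log2 fold change of Sephs2, which makes selenophosphate, was -0.03 (SE 0.081), and that of Secisbp2, which binds the selenocysteine insertion element, -0.04 (SE 0.046). The median of the list was -0.011.

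Other peroxiredoxins and the thioredoxin system had 13 of 14 tested genes with a negative estimate, against 6046 of all 12693, and a median of -0.087. At an unadjusted p under 0.05, 5 of the 14 were lower (5.42% of all tested genes were) and 0 higher, and the smallest adjusted p was 0.244. The 5 were Prdx4 (log2 fold change -0.11), Prdx5 (-0.09), Txn2 (-0.12), Txnrd3 (-0.15) and Glrx5 (-0.15). Prdx3, the peroxiredoxin of mitochondria, was at 41.5, 42 and 41.1 RPKM with β-gal and at 40.6, 39 and 38.4 with Aloxe3 (log2 fold change -0.08, SE 0.035). The cytosolic thioredoxin reductase Txnrd1, also a selenoprotein, had an estimate of -0.02 (SE 0.047), and Srxn1, which repairs overoxidized peroxiredoxins, of -0.08 (SE 0.067). Without replicate 9 the median of the list was -0.060, Glrx5 was at -0.11 and no longer had an unadjusted p under 0.05, and Txnrd1 (0.02), Glrx2 (0.02) and Glrx3 (0.00) were no longer negative. Among the 5 tested genes of other glutathione peroxidases and microsomal glutathione transferases the median was near 0, with Mgst1 at -0.06 (SE 0.074) and Gpx3 between 1.76 and 2.36 RPKM in all libraries.

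For radical trapping beside Aifm2, 23 genes were tested, with a median of -0.039. At an unadjusted p under 0.05, 3 were higher and 1 lower, against 7.31% and 5.42% of all tested genes. Ttpa, the vitamin E transfer protein, was at 3.63, 3.6 and 3.47 RPKM with β-gal and at 4.66, 4.74 and 4.32 with Aloxe3. The groups were well separated, with a log2 fold change of 0.29 (SE 0.048, limma adjusted p = 0.0733, and 0.0213 with voom). Coq2, an enzyme of coenzyme Q synthesis, had -0.08 (SE 0.043), Dhodh, which reduces coenzyme Q in mitochondria, -0.05 (SE 0.061), and Nqo1, a quinone reductase, 0.04 (SE 0.115).

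Of the 18 tested genes of other membrane lipid remodelling, 14 were positive, against 6647 of all 12693, and the median was 0.035. At an unadjusted p under 0.05, 2 were higher (Acsl1 and Mboat1) and 0 lower, against 7.31% and 5.42% of all tested genes. Mboat1 had a log2 fold change of 0.17 (SE 0.062). Acsl1, a synthetase for saturated and monounsaturated fatty acids, was at 5.81, 5.97 and 6.1 RPKM with β-gal and at 6.68, 6.59 and 6.23 with Aloxe3 (log2 fold change 0.11, SE 0.043, limma adjusted p = 0.363). Acsl3 had an estimate of 0.09 (SE 0.052). In Acsl1 and Acsl3 the Aloxe3 libraries lay above the controls, as in 11.2% of all tested genes. Acsl5, the most abundant acyl-CoA synthetase of the list, overlapped at 85 to 89.7 RPKM with β-gal and 86.2 to 90.9 with Aloxe3 (log2 fold change 0.01), and Acsl6 was under the filter. The desaturases Fads1 (0.01, SE 0.039) and Fads2 (0.04, SE 0.046), which make arachidonic acid, overlapped between the groups. Lpcat2 was under the filter, at 0.234 RPKM or less.

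**Figure D4:**
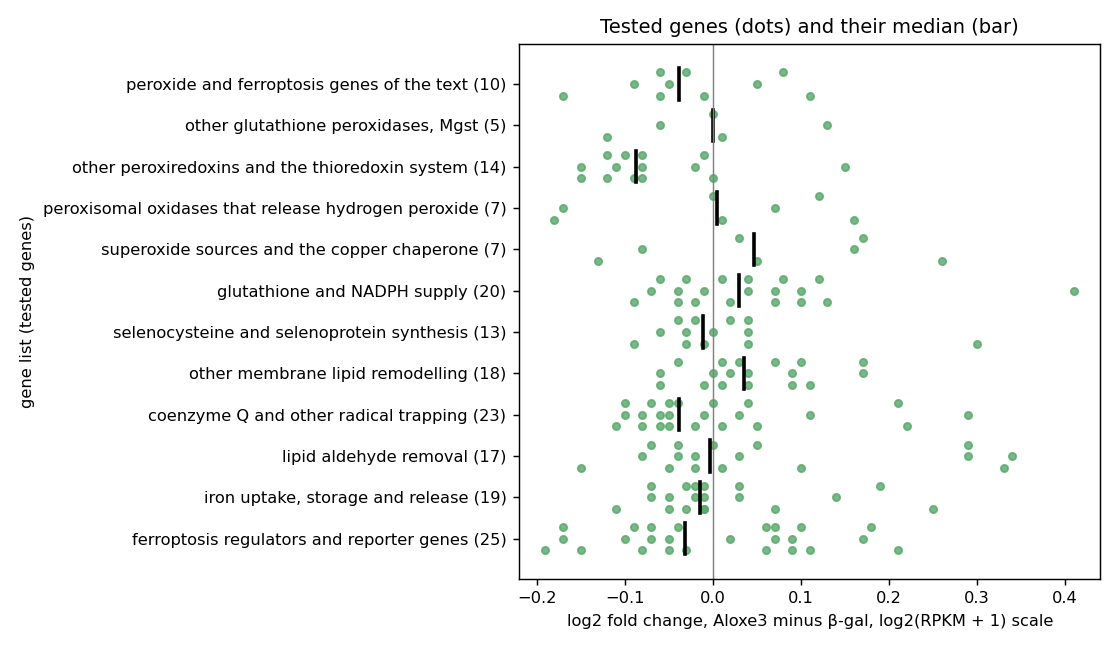
Log2 fold change, Aloxe3 minus β-gal on the log2(RPKM + 1) scale, of every tested gene of the 10 genes and of the 11 pathway lists (dots, number tested in parentheses), with the median of each list (bar). Medians lie between -0.087 for other peroxiredoxins and the thioredoxin system and 0.047 for superoxide sources, and the single genes farthest right are Gclc at 0.41 and Aldh1a1 at 0.34.

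Around catalase and the dismutases, the 7 tested peroxisomal oxidases had a median of 0.005. Uox, urate oxidase, was at 1.62, 1.59 and 1.49 RPKM with β-gal and 1.35, 1.32 and 1.15 with Aloxe3 (log2 fold change -0.18, SE 0.062, limma adjusted p = 0.318). Superoxide sources and the copper chaperone had 7 tested genes, with a median of 0.047. At an unadjusted p under 0.05, 3 were higher (Aox1 0.16, Aox3 0.26 and Cybb 0.17, log2) and 0 lower. Of all tested genes 7.31% were higher and 5.42% lower. Ccs, the chaperone that loads copper into Sod1, was at 33.5, 33.5 and 34.5 RPKM with β-gal and at 32.1, 32.6 and 28.1 with Aloxe3. Like Sod1 it did not overlap between the groups, with every Aloxe3 library lower and replicate 9 the lowest (log2 fold change -0.13, SE 0.057, limma adjusted p = 0.411). Without replicate 9 the log2 fold change of Ccs was -0.06. Xdh, xanthine dehydrogenase, overlapped (0.05, SE 0.106).

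Among ferroptosis regulators and reporter genes 25 were tested, with a median of -0.032. At an unadjusted p under 0.05, 3 were higher and 1 lower, against 7.31% and 5.42% of all tested genes. Nfe2l2, which encodes the transcription factor NRF2, was at 46.4, 48.4 and 49.4 RPKM with β-gal and at 55.6, 53.9 and 57.9 with Aloxe3. It was higher in 3 of 3 libraries, with a log2 fold change of 0.21 (SE 0.041, limma adjusted p = 0.119, and 0.0207 with voom). Ptgs2, used as a transcript marker of ferroptosis, was low in both groups, at 0.989 to 1.2 RPKM with β-gal and 1.11 to 1.3 with Aloxe3 (log2 fold change 0.09, SE 0.068, limma adjusted p = 0.611). Sat1, of polyamine breakdown, had -0.10 (SE 0.067) and Por, a reductase that can supply electrons for lipid peroxidation, 0.02 (SE 0.049). In iron handling 19 of 19 genes were tested, with a median of -0.015. At an unadjusted p under 0.05, 2 were higher (Cp and Trf) and 0 lower, against the same 7.31% and 5.42%. Trf, transferrin, was at 98.8 to 102 RPKM with β-gal and 105 to 113 with Aloxe3. The ferritin heavy chain Fth1 was at 4693 to 4992 RPKM over all libraries. The transferrin receptor Tfrc had -0.11 (SE 0.053) and the heme oxygenase Hmox1 0.07 (SE 0.128), with adjusted p of 0.429 and 0.846 from limma.

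In lipid aldehyde removal 17 genes were tested, with a median of -0.003. At an unadjusted p under 0.05, 3 were higher and 0 lower, against 7.31% and 5.42% of all tested genes. Gsta4, a glutathione transferase for 4-hydroxynonenal, was at 27.9, 32.6 and 35.8 RPKM with β-gal and at 43.6, 38.8 and 35.6 with Aloxe3. The groups overlapped at a single pair of libraries (log2 fold change 0.29, SE 0.099, limma adjusted p = 0.313). Aldh2, a mitochondrial aldehyde dehydrogenase, was at 117 to 118 RPKM with β-gal and 113 to 117 with Aloxe3 (log2 fold change -0.04, SE 0.032).

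Medians and small estimates in the pathway lists depended on Aloxe3 replicate 9. Without it the median log2 fold change was 0.067 for lipid aldehyde removal, -0.010 for coenzyme Q and other radical trapping, 0.038 for peroxisomal oxidases, 0.059 for superoxide sources and the copper chaperone, and 0.056 for glutathione and NADPH supply. It was 0.010 for selenocysteine synthesis, 0.023 for other membrane lipid remodelling, 0.013 for other glutathione peroxidases and microsomal glutathione transferases, 0.001 for iron handling, -0.018 for ferroptosis regulators and 0.008 over all 168 genes. For single genes, the log2 fold change without it turned from -0.06 to 0.03 for Mgst1, from -0.02 to 0.02 for Txnrd1, from -0.04 to 0.01 for Gsr, from -0.03 to 0.07 for Sephs2, from -0.02 to 0.01 for Fth1 and from 0.02 to -0.03 for Por. That of Sat1 went from -0.10 to -0.02, of Srxn1 from -0.08 to -0.03, of Hmox1 from 0.07 to 0.17, of Xdh from 0.05 to 0.15 and of Nqo1 from 0.04 to 0.12. That of Gclm went from 0.04 to 0.08, of Fads2 from 0.04 to 0.01, of Dhodh from -0.05 to -0.01, of Secisbp2 from -0.04 to -0.01 and of Coq2 from -0.08 to -0.05. Gclc, Selenop, Ttpa and Nfe2l2 were at 0.49, 0.26, 0.32 and 0.18 without it. Across all the alternatives described below, the lowest log2 fold change was -0.06 for Hmox1, -0.05 for Xdh, -0.06 for Nqo1 and -0.01 for Gclm. The sign of these small estimates therefore turned in at least 1 other alternative.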

How the data were processed

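RNA was measured in 6 libraries, and groups and replicate numbers were taken from the titles. Per the labels and the study's methods, the authors aligned single reads with STAR 2.0.4b (GRCm38.p2), summed unique, unambiguous reads for each gene in featureCounts 1.4.5, and deposited RPKM; how counts became RPKM is not given in the sources used here. Symbols, coordinates and exon lengths came from GENCODE M21 (40254 of 41388 identifiers matched). Reads were derived as whole multiples (within 0.02) with the M21 length for 16539 genes or the shortest fitting length for 8449. Reads of near-identical genes or pseudogenes are lost to unique alignment. Intervals of counting error cover counting only.

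Values were tested as log2(RPKM + 1), which understates the change of low genes, for genes averaging 0.5 RPKM or more. The linear model of limma 3.58.1 (R 4.3.3) was moderated along a mean-variance trend, and p-values were adjusted by Benjamini-Hochberg across every gene tested. The median half-width of the 95% interval was 0.10 for the 10 genes. Replicate pairs differed by more than sampling noise (chi-square per degree of freedom of 3.87 to 11.3). The fit was tested on simulated data. Python 3.11.15 was used for summaries.

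The 10 genes and the lists were chosen with earlier results of these data known. Named were the 10 genes, Aloxe3, and genes of each list picked for their role, plus any past the threshold. Acsl5, Acsl6, Aldh1a1, Aox1, Aox3, Cp, Cybb, Emg1, Glrx2, Glrx3, Glrx5, H2afy2, Mboat1, Prdx4, Prdx5, Trf, Txn2 and Txnrd3 were named after their values were seen. Alternatives were a pseudocount of 0.1, no filter, a filter at 5 RPKM, median rescaling, quantile normalization, eBayes without trend, voom on the derived reads, and each library left out. The result of 1 named gene is not reported here.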

Additional observations from a re-analysis of the deposited data

How the results depend on the processing

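No paired analysis was possible because the groups share no replicate number. None of the 10 genes was past the adjusted threshold in any of the 13 alternatives, the smallest adjusted p being 0.19. Of their 130 log2 fold changes under alternatives, 124 kept their sign. Prdx1 turned from -0.03 to 0.0029 with quantile normalization and to 0.09 without Aloxe3 replicate 9, with a range of -0.09 to 0.09 when single libraries were left out. Sod2 turned from -0.01 to 0.0076 with quantile normalization, to 0.0068 without Aloxe3 replicate 7, and to 0.01 without β-gal replicate 2 or Aloxe3 replicate 9, with a range of -0.04 to 0.01 when single libraries were left out. An unadjusted p under 0.05 was kept by Aifm2 in 10 of the 13 alternatives and by Acsl4 in 9. The number of genes past the threshold over the whole table was 50, and 7 without a filter, 173 with voom, and 6 to 19 with a library left out (6 without Aloxe3 replicate 7, 19 without Aloxe3 replicate 9, and 9, 10 and 15 without β-gal replicates 1, 2 and 3). The fits with a library left out had 5 samples. Of the pathway genes, 0 were past it, 1 with the filter at 5 RPKM (Selenop) and 7 with voom. The cause of the change with voom was not tested. The depth limits Aifm2 most, with a counting error of up to 2.7% per library.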

Other observations

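The 7 pathway genes past an adjusted p of 0.05 with voom on the derived reads were all higher with Aloxe3. Of the 50 genes past the threshold in the main limma fit, 45 were higher as well. The direction of all 173 genes past it with voom is not given here. Of the 7 pathway genes, 4 (Gclc, Selenop, Ttpa and Nfe2l2) are described above. The other 3 were named after their values were seen. Aldh1a1, a retinal and lipid aldehyde dehydrogenase, was at 40.7, 39.6 and 44.7 RPKM with β-gal and at 58.7, 50 and 50.8 with Aloxe3 (log2 fold change 0.34, SE 0.071, adjusted p = 0.138 from limma, and 0.00787 with voom). Cp, the plasma copper protein ceruloplasmin that oxidizes iron, was at 152, 167 and 175 RPKM with β-gal and at 202, 202 and 182 with Aloxe3 (log2 fold change 0.25, SE 0.063, adjusted p = 0.237 from limma, and 0.0254 with voom). Aox3, an aldehyde oxidase, was at 0.308, 0.368 and 0.452 RPKM with β-gal and at 0.641, 0.622 and 0.662 with Aloxe3, and its log2 fold change was 0.26 (SE 0.071) on the log2(RPKM + 1) scale and 0.79 with voom, which has no pseudocount of 1 RPKM.

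Within a library and with the gene lengths of the deposited values, on which these ratios depend, the ratio of Sod1 to Sod2 was 11.4 in each of the β-gal replicates and 11.2, 10.6 and 10.5 in Aloxe3 replicates 7, 8 and 9. The ratio of Prdx1 to Prdx6 was 1.68 ± 0.076 with β-gal and 1.73 ± 0.16 with Aloxe3 (SD, n = 3 each), and overlapped.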
